A study of Drosophila melanogaster with 18 samples.

Results

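Genes of the Notch pathway were examined for RNA polymerase II occupancy in the embryonic mesoderm of Drosophila melanogaster. The set held 9 of 17873 annotated genes, chosen by symbol: the receptor gene N, the ligand genes Dl and Ser, the processing and trafficking genes kuz, neur and numb, and the nuclear genes Su(H), mam and H. Occupancy was measured by targeted DamID, in which a Dam methylase fused to RNA polymerase II (Dam-PolII) is expressed through GAL4 and marks GATC sequences near the polymerase with adenine methylation. In this bulk assay, fewer driver-positive cells and less occupancy per cell cannot be told apart. The 18 libraries formed 6 groups of 3 replicates from embryos at stages 10 to 13. By the labels and methods, every group expressed Dam-PolII, either under bap-GAL4 (bap, active in the visceral mesoderm) or under twi.2xPE-GAL4 (twi, active in the mesoderm at large). Under each driver, a control group, labelled Dam-PolII, expressed the fusion alone in a wild-type background. The Alk.DN group also expressed the MYC-tagged ectodomain of Alk (UAS-Alk.EC.MYC), a dominant-negative form of this receptor tyrosine kinase, and the Jeb group also expressed jeb (UAS-jeb), which encodes the Alk ligand. Each library was made from pooled embryos, and the methods of the study describe the replicates as biological.

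The Notch pathway passes a signal between touching cells. A ligand on one cell binds the Notch receptor on its neighbour, cleavage frees the intracellular part of the receptor, and that part joins Su(H) and mastermind in the nucleus to activate genes such as those of the Enhancer of split complex. In the fly mesoderm, lateral inhibition through Notch is known for the choice between the founder cells that seed each muscle and the fusion-competent cells that fuse with them. In the visceral mesoderm, Jeb and Alk are known to specify the founder cells.

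Total counts per library ran from 1624349 to 14095376 over 400733 GATC sites, so that the floor of 3 counts stood between 0.213 and 1.85 counts in 1000000 (CPM). The control libraries are called the twi controls and, for the reason given next, the labelled bap controls. Several libraries stood apart from their labels or from their group. Sites in the first exon of jeb, which mark the jeb transgene, held 367 to 470 CPM in the labelled bap controls, which should carry no such transgene, and 13.2 CPM or less in all other libraries not labelled Jeb. Both labelled Jeb replicate 1 libraries held 5.57 CPM or less there, against 249 CPM or more in the other 4 Jeb libraries. Exons of Polr2A, which encodes the subunit fused to Dam, held 31.8 to 52.6 CPM in the 6 Alk.DN libraries and 157 CPM or more in the other 12. Among those 12, they held 2043 to 2088 CPM in the labelled bap controls and 550 to 876 CPM in bap Jeb. In twi they held 260 to 269 CPM in the controls and 157 to 332 CPM in Jeb. The labelled bap controls thus stood apart as well. The Alk.DN counts go against the statement that Alk.DN carried the same Dam-PolII construct, and every comparison with Alk.DN rests on those libraries. Counts within 1000 bp of a transcript start made up 44.7% to 45.7% of the total in Alk.DN libraries and 52.2% to 58.5% in the others. GATC sites that adjoined no purine-ended fragment (a stretch between adjacent GATC sites in which the base that follows the GATC is a purine when read from each end) took 12.9% and 14.5% of the counts in the labelled Jeb replicate 1 libraries, against 54.3% to 60.5% in the other 16. The part of these differences in the results on Notch genes was not tested. Marker values are means over the genes of a class, whose members could differ. Markers of the visceral mesoderm (4 genes) held 30 to 36.1 CPM per site in the labelled bap controls, 10.5 to 11.1 in bap Alk.DN, 10.3 to 10.6 in the twi controls and 4.04 to 4.79 in twi Alk.DN. Of these genes only Fas3 went the other way in twi, at 3.302 to 3.531 CPM per site in the controls and 3.725 to 4.088 in Alk.DN. Markers of neurons (4 genes) held 1.52 to 3.93 CPM per site in all libraries. Among them elav was lower in twi Alk.DN (7.136 to 7.549 CPM per site) than in the twi controls (11 to 12.01), while nSyb, brp and Syt1 were higher. Glial markers (2 genes) held 7.17 to 8.2 CPM per site in the labelled bap controls and 4.38 to 4.85 in bap Alk.DN, with 5.61 to 6.02 and 3.43 to 3.55 in twi. Hemocyte markers (2 genes) held 0.0712 to 0.12 and 0.734 to 0.807 in bap, and 0.577 to 0.716 and 0.883 to 1.02 in twi. In twi the hemocyte gene Hml was higher in Alk.DN, while Pxn overlapped between the groups. The glial gene moody was lower in Alk.DN under both drivers, while repo was lower in bap and overlapped between the groups in twi. The mean of the markers of the mesoderm at large (4 genes) was lower in Alk.DN too, at 14.9 to 15.4 against 9.86 to 10.2 CPM per site in bap and 16.5 to 18 against 9.02 to 9.67 in twi. Of these genes tin overlapped between the groups under both drivers, and zfh1 overlapped in bap. The endoderm marker was lower in twi Alk.DN (5.43 to 7.37 in the controls against 2.87 to 3.29) and higher in bap Alk.DN (0.708 to 0.861 against 1.33 to 2.27). The median of all genes was itself higher in Alk.DN: 0.694 to 0.729 CPM per site in the labelled bap controls and 1.35 in bap Alk.DN. In twi that median was 0.914 to 0.943 in the controls and 1.53 to 1.6 in Alk.DN. Rises of markers with low values are read only beside that shift. The part of these cell types in the results was not tested.

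Levels between genes were compared as CPM per GATC site, because the number of countable sites ran from 14 in Su(H) to 153 in N. On this scale neur stood highest of the 9 genes in every group, with group means between 13.0 and 29.11 CPM per site (the 93.9th to 96.2nd percentile of 17650 genes). The gene mam held 4.13 to 8.54 CPM per site (79.9th to 89.3rd percentile) and N 2.33 to 4.75 (66.2nd to 82.1st percentile). H, which encodes the adaptor that turns Su(H) into a repressor, stood lowest in 5 groups, at 0.345 to 1.53 CPM per site over the 6 (28.7th to 50.9th percentile), and close to Ser in twi Jeb, where the spread of each was larger than the difference (0.815 ± 0.694 for H and 0.785 ± 0.368 for Ser, SD, n = 3).

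**Figure D1:**
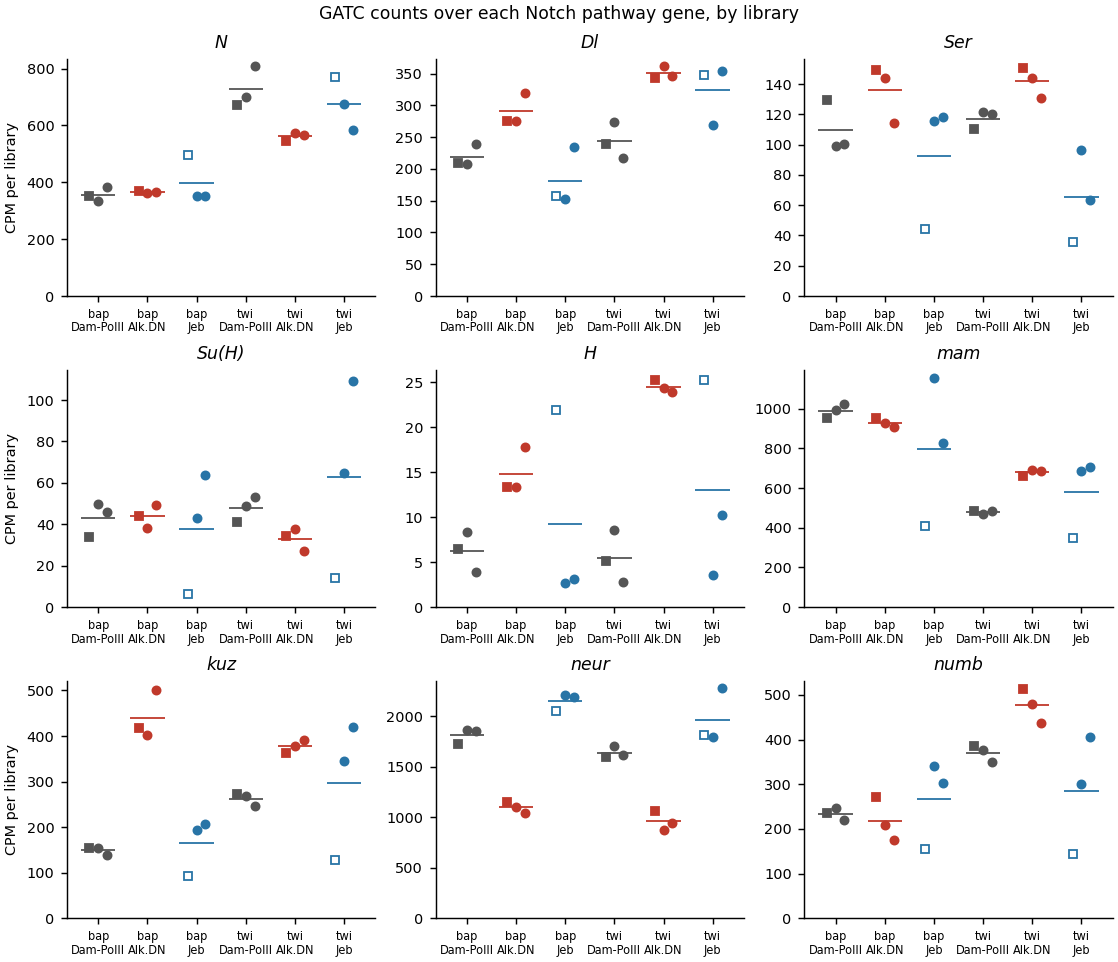
CPM of each of the 9 Notch pathway genes (panels, vertical axes from 0) in each of the 18 libraries, by group, with a bar at the group mean, squares for replicate 1 (open in Jeb) and circles for replicates 2 and 3. The points for neur in both Alk.DN groups (875.6 to 1154 CPM) lie below all other neur points (1600 to 2279 CPM), and the points of labelled Jeb replicate 1 lie apart from the other Jeb points for Su(H), mam, kuz and numb.

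The comparison of Alk.DN with Dam-PolII addressed what Notch pathway occupancy looked like when Alk was inhibited. In the bap comparison 5 of the 9 genes passed the threshold (edgeR quasi-likelihood test, adjusted p under 0.01), against 38.8% of all 14920 genes tested. The gene kuz was higher in Alk.DN (17.2% of all genes were), and N, mam, neur and numb were lower (21.6% of all genes were). In the twi comparison 4 of the 9 passed, against 33.6% of all 16491 genes, with H higher (12.7% of all genes) and N, Su(H) and neur lower (21.0% of all genes). These shares of the set are read only against those backgrounds, and no test of the set was made. The median log2 fold change of all genes was 0.10 in bap and 0.18 in twi after scaling by the trimmed mean of M-values (TMM). Scaling by total counts moved those medians to 0.69 and 0.77, so each direction below is relative to the scaling, and CPM as printed, unless called TMM-scaled, are relative to total counts. It also changed the split of calls over all genes from 2570 higher and 3226 lower to 4940 higher and 1603 lower in bap, and from 2089 higher and 3455 lower to 5441 higher and 1798 lower in twi. With total counts, 3 members passed in bap (kuz and Dl higher, neur lower) and 7 in twi (Dl, H, mam, kuz and numb higher, N and neur lower). One edgeR fit over all 18 libraries, which held the labelled Jeb replicate 1 libraries, called only neur in each comparison.

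**Figure D2:**
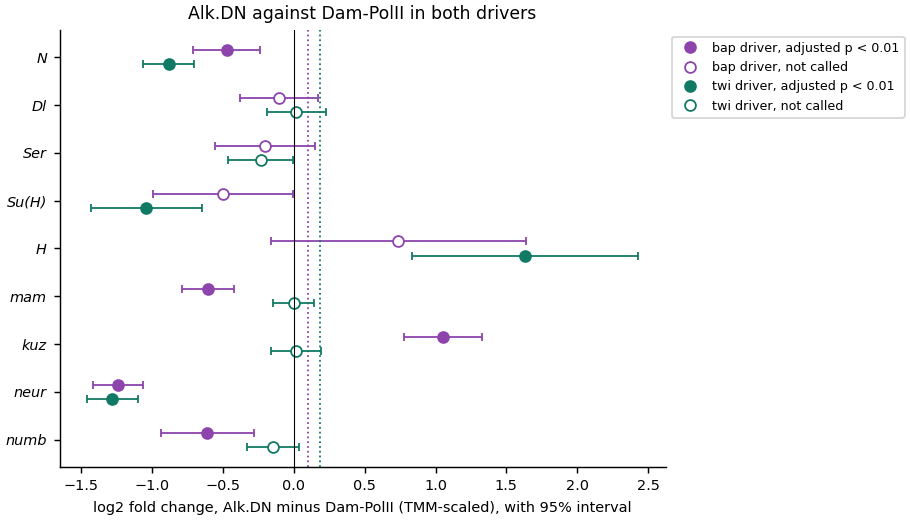
Log2 fold change of each member in Alk.DN over the controls (horizontal axis, log2 units, TMM-scaled) for each driver, with 95% intervals from the edgeR fit. Filled points passed the threshold, open points did not, and dotted lines mark the medians of all genes (0.10 in bap and 0.18 in twi). The interval of neur lies below 0 under both drivers (-1.42 to -1.06 in bap and -1.46 to -1.10 in twi).

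The member with the lowest log2 fold change in Alk.DN under both drivers was neur, which encodes an E3 ubiquitin ligase that promotes endocytosis of Delta in the signal-sending cell. It lies at chr3R:9020348-9039471 (release 6, minus strand) with 74 GATC sites in its span and the 1 kb upstream. Under bap the gene neur stood at 1722, 1869 and 1855 CPM (labelled controls), at 1154, 1097 and 1046 CPM (Alk.DN) and at 2056, 2216 and 2190 CPM (Jeb). In the twi controls it held 1600, 1704 and 1620 CPM, in twi Alk.DN 1067, 875.6 and 941.9 CPM, and in twi Jeb 1815, 1797 and 2279 CPM. In raw CPM all 6 Alk.DN libraries were below all 12 others, and under each driver the Jeb libraries were above the controls. The share of all genes separated in these ways was not counted. The difference between Jeb and the controls did not pass under either driver (edgeR adjusted p = 0.503 in bap and 0.645 in twi). In bap, neur fell by 1.24 on the log2 scale in Alk.DN (SE 0.083, 95% interval -1.42 to -1.06, edgeR adjusted p = 8.02e-09). In twi it fell by 1.28 (SE 0.082, 95% interval -1.46 to -1.10, edgeR adjusted p = 1.77e-07). The call and its direction held with total counts, where the log2 fold changes were -0.64 and -0.69. The antisense RNA gene asRNA:CR31429 and the gene hyx overlap the neur window, and sites shared with them held 4.99% to 17.3% of its counts.

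The highest counts at neur lay in an intron. The pair of GATC sites with the most counts, 10753 and 10321 bp downstream of the gene start, are shown with 28 bases on each side, 5′ to 3′ on the gene strand, with the GATC in capitals, at chr3R:9028690-9028749 and chr3R:9029122-9029181.
neur site at +10753: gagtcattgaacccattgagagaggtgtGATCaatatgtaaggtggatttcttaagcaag
neur site at +10321: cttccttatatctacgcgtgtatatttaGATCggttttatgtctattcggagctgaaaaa
The first held 405.9, 438.5 and 402.3 CPM in the labelled bap controls and 303.6, 260.8 and 270.2 CPM in bap Alk.DN (log2 fold change -0.97, edgeR adjusted p = 0.000163 over 71052 sites). In twi it held 380.4, 395.9 and 341.9 CPM in the controls and 244.0, 178.6 and 202.8 CPM in Alk.DN (log2 fold change -1.36, adjusted p = 7.21e-05 over 116694 sites). The groups did not overlap at this site under either driver. The second site fell by 1.21 in bap (adjusted p = 7.43e-05) and by 1.68 in twi (adjusted p = 2.22e-05). Around the second annotated transcript start of neur the differences were larger. The site 533 bp downstream of that start held 43.14, 62.62 and 77.22 CPM in the labelled bap controls and 23.24, 22.92 and 23.52 CPM in bap Alk.DN (log2 fold change -1.79, adjusted p = 0.000185). Under twi it held 41.61, 45.46 and 42.19 CPM in the controls and 12.08, 13.03 and 12.42 CPM in Alk.DN (log2 fold change -2.31, adjusted p = 4.01e-06). Over the whole gene, 19 of 38 tested sites were lower in bap Alk.DN and 21 of 48 in twi Alk.DN, and 0 were higher. Of all sites tested, 20.4% passed in bap (12.3% lower) and 11.1% in twi (8.43% lower).

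The receptor gene N (chrX:3134870-3172221, plus strand, 153 sites) was lower in Alk.DN under both drivers after TMM scaling, but with total counts its log2 fold change in bap was 0.12. Raw CPM of N overlapped in bap, at 351.1, 334.4 and 382.0 in the labelled controls and 371.1, 362.1 and 365.4 in Alk.DN. After TMM scaling the same libraries stood at 345.4, 335.4 and 383.1 CPM and at 258, 252.9 and 255.7 CPM. The raw values thus overlapped and the scaled values did not (log2 fold change -0.47, SE 0.11, edgeR adjusted p = 0.0023). This call was lost with a count minimum of 50 (adjusted p = 0.0368) and without labelled bap control replicate 3 (adjusted p = 0.0134). In twi the CPM themselves did not overlap, at 672.0, 700.4 and 809.6 in the controls and 545.6, 574.0 and 566.2 in Alk.DN. There N fell by 0.88 on the log2 scale (SE 0.082, edgeR adjusted p = 4.19e-06), and by 0.29 with total counts, which was still called.

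Much of the N signal lay at its transcript start. The GATC sites 3 and 441 bp downstream of the start, both exonic, are shown because both were lower in Alk.DN under both drivers. They are given with 13 bases on each side and the GATC in capitals (chrX:3134860-3134889 and chrX:3135298-3135327).
N site at +3: ccgatttgaaacaGATCgcttttttccagt
N site at +441: gaatttgtggctcGATCctcgcgaagagaa
The site at +3 held 111.8, 109.0 and 119.9 CPM in the labelled bap controls and 74.63, 89.35 and 69.79 CPM in bap Alk.DN (log2 fold change -0.93, edgeR adjusted p = 0.00133). With twi it held 186.4, 205.6 and 248.7 CPM in the controls and 88.32, 102.8 and 99.89 CPM in Alk.DN (log2 fold change -1.66, adjusted p = 1.58e-05). The groups did not overlap under either driver. The site at +441 fell by 0.75 in bap (adjusted p = 0.00869) and by 1.53 in twi (adjusted p = 2.44e-05). Sites within 1000 bp of the start held 63.4% ± 2.30 (SD, n = 3) of the N counts in the labelled bap controls and 44.7% ± 6.36 in bap Alk.DN. In twi the share was 59.8% ± 0.985 in the controls and 37.6% ± 2.08 in Alk.DN. The share near starts was also lower over the whole genome in Alk.DN libraries, as given above. The gene kirre, which the paper names as a known Alk target, ends just upstream on the same strand (chrX:2740384-3134532). It overlaps the N window, and the shared site held 0% to 0.698% of the N counts. The part of kirre in the counts at the N start was not tested.

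Ser and Dl encode the ligands of Notch. Neither passed the threshold in the Alk.DN comparisons after TMM scaling. Dl (chr3R:19302731-19326217, minus strand, 65 sites) held 209.0, 208.0 and 239.7 CPM in the labelled bap controls and 275.7, 275.8 and 319.9 CPM in bap Alk.DN. In twi it held 238.8, 274.1 and 216.9 CPM in the controls and 343.5, 362.3 and 345.6 CPM in Alk.DN. Raw CPM of Dl were thus higher in every Alk.DN library, while the TMM-scaled log2 fold changes were -0.11 in bap (95% interval -0.38 to 0.17, edgeR adjusted p = 0.512) and 0.018 in twi (95% interval -0.19 to 0.23, adjusted p = 0.889). With total counts Dl was called higher in both (0.49 and 0.61). Ser (chr3R:27172090-27194267, minus strand, 83 sites) held 129.4, 99.32 and 100.4 CPM in the labelled bap controls and 149.4, 144.1 and 114.0 CPM in bap Alk.DN. Its twi values were 110.1, 121.3 and 120.0 CPM in the controls and 150.7, 144.0 and 130.8 CPM in Alk.DN. The TMM-scaled log2 fold changes of Ser were -0.20 in bap (95% interval -0.56 to 0.15) and -0.23 in twi (95% interval -0.46 to -0.0071, edgeR adjusted p = 0.0818), and both were positive with total counts (0.39 and 0.36).

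Within Dl the sites did not move together. An intronic site 11402 bp downstream of the start rose in bap Alk.DN and is shown with the GATC in capitals (chr3R:19314787-19314846, gene strand).
Dl site at +11402: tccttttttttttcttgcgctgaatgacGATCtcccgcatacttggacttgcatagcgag
It held 17.05, 17.05 and 19.23 CPM in the labelled bap controls and 61.59, 40.0 and 54.11 CPM in bap Alk.DN (log2 fold change 1.16, edgeR adjusted p = 0.00275). In twi its log2 fold change was 0.84 (adjusted p = 0.0331). Of 33 tested Dl sites in bap, 2 were higher and 4 lower in Alk.DN, a share near the 20.4% of all sites.

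The protease gene kuz encodes the ADAM metalloprotease that sheds the extracellular part of Notch after ligand binding. It spans 90.3 kb with its upstream window (gene at chr2L:13550139-13639411, plus strand, 118 sites). In bap its CPM was 153.6, 153.1 and 139.1 in the labelled controls and 417.6, 402.8 and 500.0 in Alk.DN, without overlap. The log2 fold change was 1.05 (SE 0.13, 95% interval 0.78 to 1.33, edgeR adjusted p = 6.56e-06). In twi the CPM of kuz was 272.3, 269.2 and 245.4 in the controls and 363.0, 377.8 and 392.1 in Alk.DN. The TMM-scaled log2 fold change there was 0.018 (95% interval -0.16 to 0.19, adjusted p = 0.871), and with total counts it was 0.61 and called higher. The difference between the drivers was itself past the threshold: the twi log2 fold change minus that of bap was -0.91 (SE 0.15, 95% interval -1.22 to -0.60, edgeR adjusted p = 0.000152). Of all 16838 genes in that interaction test, 10.9% passed (6.0% higher and 4.87% lower), and 2 of the 9 members did.

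A pair of intronic kuz sites is shown because they moved in opposite directions in twi Alk.DN (chr2L:13577004-13577063 and chr2L:13614886-13614945, GATC in capitals).
kuz site at +26893: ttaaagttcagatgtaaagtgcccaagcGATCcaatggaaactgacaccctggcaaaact
kuz site at +64775: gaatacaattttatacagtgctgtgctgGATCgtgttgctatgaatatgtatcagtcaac
The site at +26893 held 9.473, 9.546 and 9.862 CPM in the labelled bap controls and 41.76, 47.02 and 66.73 CPM in bap Alk.DN (log2 fold change 2.04, edgeR adjusted p = 9.85e-05). Under twi it held 11.06, 10.76 and 6.706 CPM in the controls and 30.4, 30.36 and 30.58 CPM in Alk.DN (log2 fold change 1.16, adjusted p = 0.00456). This site was therefore higher in Alk.DN under both drivers. The site at +64775 held 16.32, 18.86 and 20.91 CPM in the labelled bap controls and 35.14, 35.79 and 32.89 CPM in bap Alk.DN, which did not pass after TMM scaling (log2 fold change 0.49, adjusted p = 0.116). With twi it held 81.57, 63.32 and 61.21 CPM in the controls and 34.04, 31.3 and 35.69 CPM in Alk.DN (log2 fold change -1.55, adjusted p = 8.59e-05). Occupancy at this site was high in the twi controls and near the same level in both Alk.DN groups. Over the gene, 7 of 33 tested kuz sites were higher in bap Alk.DN (8.16% of all sites were), while 2 were higher and 2 lower of 51 in twi, where 11.1% of all sites passed.

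The gene numb encodes an inhibitor of Notch that is passed to a single daughter at asymmetric divisions. It lies at chr2L:9437469-9464184 (plus strand, 71 sites). In bap numb held 236.1, 246.1 and 220.0 CPM in the labelled controls and 272.4, 208.6 and 175.3 CPM in Alk.DN, so that the raw values overlapped. After TMM scaling they stood at 232.3, 246.9 and 220.6 CPM and at 189.5, 145.7 and 122.7 CPM, without overlap. The log2 fold change was -0.61 (SE 0.15, edgeR adjusted p = 0.00373), and -0.017 with total counts. The call was lost on leaving out labelled bap control replicate 2, bap Alk.DN replicate 2 or bap Alk.DN replicate 3 (adjusted p between 0.0106 and 0.0173), with a count minimum of 50 (adjusted p = 0.0293) and on sites beside a purine-ended fragment alone (-0.21, adjusted p = 0.298). In twi numb held 385.1, 377.3 and 349.6 CPM in the controls and 512.5, 479.7 and 437.9 CPM in Alk.DN, with a TMM-scaled log2 fold change of -0.15 (95% interval -0.33 to 0.037, adjusted p = 0.168) and one of 0.45 with total counts, which was called.

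Sites around the second transcript start of numb did not move together. The site upstream of it is shown because it was higher in twi Alk.DN (chr2L:9449181-9449240, GATC in capitals).
numb site at +11740: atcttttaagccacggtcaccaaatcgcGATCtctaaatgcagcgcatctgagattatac
It lies 621 bp upstream of that start and held 23.45, 23.54 and 19.02 CPM in the twi controls and 62.81, 65.87 and 53.92 CPM in twi Alk.DN (log2 fold change 0.94, edgeR adjusted p = 0.00219). In bap its log2 fold change was 0.70 (adjusted p = 0.0319). Exonic sites 258 and 458 bp downstream of the same start went the other way, with log2 fold changes of -3.74 and -3.88 in bap (adjusted p = 0.000183 and 0.000124). In twi those were -1.14 and -1.10, which did not pass (adjusted p = 0.0424 and 0.0397). The tested numb sites that were lower in bap Alk.DN numbered 5 of 30, near the 20.4% of all sites that passed in either direction.

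Su(H) encodes the DNA-binding protein to which the Notch intracellular part binds. It is a short gene (chr2L:15039488-15043334, plus strand) with 14 sites in its window. Its CPM overlapped in bap, at 33.96, 49.77 and 45.95 in the labelled controls and 44.02, 38.13 and 49.14 in Alk.DN (log2 fold change -0.50, 95% interval -0.99 to -0.0035, edgeR adjusted p = 0.0832). In twi it held 41.11, 48.71 and 53.16 CPM in the controls and 34.33, 37.71 and 27.17 CPM in Alk.DN, without overlap. There Su(H) fell by 1.04 on the log2 scale (SE 0.18, adjusted p = 0.000563), and with total counts by 0.45, which did not pass. On sites beside at least 1 purine-ended fragment alone its log2 fold change was 0.76 in bap and 0.038 in twi, so the difference lay at the other sites. Sites inside the neighbouring gene CIAPIN1, upstream of Su(H), held 1.84% to 31.9% of its counts.

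An exonic site by the Su(H) start and another in the gene body are shown because they behaved differently (chr2L:15039604-15039633 and chr2L:15041882-15041911, GATC in capitals).
Su(H) site at +129: agtcgctagtcaaGATCtgctcgaaacgct
Su(H) site at +2407: cgaacaaggagatGATCaatgacggcgcct
The site at +129 held 10.06, 12.27 and 11.83 CPM in the labelled bap controls and 3.401, 1.871 and 1.147 CPM in bap Alk.DN (log2 fold change -2.78, edgeR adjusted p = 0.000857). Under twi it held 13.21, 13.6 and 15.48 CPM in the controls and 2.397, 3.362 and 2.483 CPM in Alk.DN (log2 fold change -2.88, adjusted p = 3.73e-05). The site at +2407 was not called under either driver (log2 fold change 0.68, adjusted p = 0.141 in bap; -0.033, adjusted p = 0.935 in twi). The share of Su(H) counts within 1000 bp of its start was 60.8% ± 12.9 (SD, n = 3) in the labelled bap controls and 15.3% ± 5.81 in bap Alk.DN. In twi it was 64.6% ± 4.67 in the controls and 22.9% ± 0.898 in Alk.DN. As for N, the share near starts was also lower over the whole genome in Alk.DN libraries. Over all tested sites within 1000 bp of a start, the median log2 fold change was -0.37 in bap and -0.13 in twi. Farther from starts it was 0.285 in bap and 0.44 in twi.

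**Figure D3:**
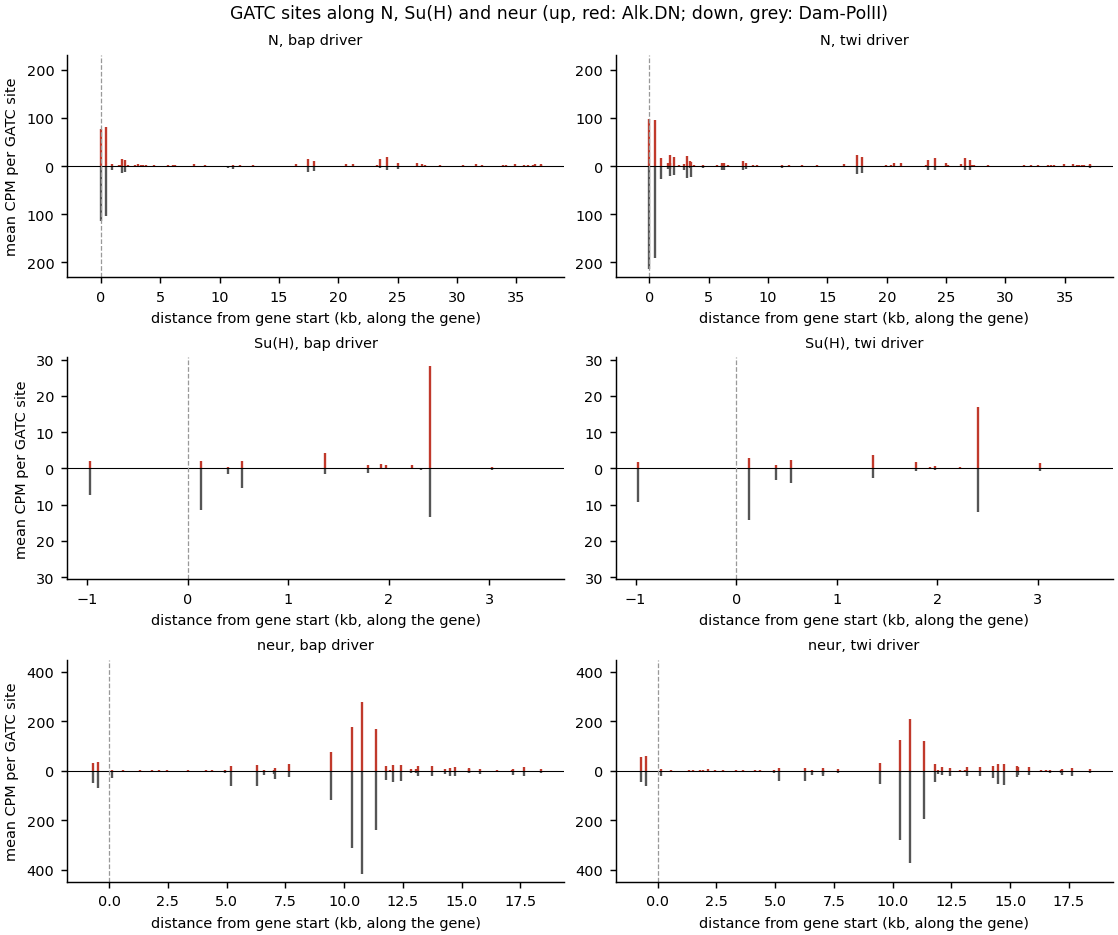
Mean CPM of each GATC site (vertical axis, 3 replicates) against distance from the gene start in kb for N, Su(H) and neur, with bap on the left and twi on the right. Alk.DN is drawn upwards in red and the Dam-PolII controls downwards in grey on the same scale. N is highest at its start, where the twi controls reach 213.6 CPM and twi Alk.DN 97.02 CPM, and neur is highest in an intron between 10 and 11 kb downstream.

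The coactivator gene mam (chr2R:13991203-14060356, plus strand, 116 sites) encodes mastermind, which joins Su(H) and the Notch intracellular part. In bap mam held 956.2, 991.9 and 1024 CPM in the labelled controls and 954.1, 929.5 and 906.2 CPM in Alk.DN. TMM scaling placed the Alk.DN libraries at 663.5, 649.1 and 634.2 CPM, with a log2 fold change of -0.61 (SE 0.087, edgeR adjusted p = 3.28e-05), but with total counts it was -0.011 (adjusted p = 0.914). The call was also lost on sites beside a purine-ended fragment alone (-0.24, adjusted p = 0.133). In twi mam held 486.8, 467.6 and 484.2 CPM in the controls and 663.3, 692.6 and 688.2 CPM in Alk.DN, with a TMM-scaled log2 fold change of -0.0018 (95% interval -0.15 to 0.14, adjusted p = 0.985) and one of 0.59 with total counts, which was called. The drivers differed here too, with a twi log2 fold change 0.73 above that of bap (SE 0.11, 95% interval 0.51 to 0.95, edgeR adjusted p = 3.66e-05). The most occupied mam site, 5920 bp downstream of the start, held 289.6, 306.1 and 319.6 CPM in the labelled bap controls and 212.6, 255.2 and 202.5 CPM in bap Alk.DN (log2 fold change -0.84, adjusted p = 0.000823). In twi its log2 fold change was -0.21 (adjusted p = 0.268).

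H (chr3R:20621938-20628915, plus strand, 16 sites) was covered thinly. Its counts were 44, 74 and 40 in the labelled bap controls, 71, 57 and 93 in bap Alk.DN, 31, 85 and 23 in the twi controls, and 263, 232 and 338 in twi Alk.DN. As CPM, H held 6.412, 8.409 and 3.945 in the labelled bap controls and 13.41, 13.33 and 17.78 in bap Alk.DN, which did not pass (log2 fold change 0.74, 95% interval -0.16 to 1.64, edgeR adjusted p = 0.156). With twi it held 5.119, 8.625 and 2.804 CPM in the controls and 25.22, 24.37 and 23.98 CPM in Alk.DN (log2 fold change 1.63, SE 0.36, adjusted p = 0.00337). The twi call was lost in 4 of the 6 fits that left out 1 library (without twi control replicate 1 or any single twi Alk.DN library, adjusted p between 0.0138 and 0.0199). Of the H sites 0 lay within 1000 bp of its start, and 0 of the 4 tested in twi passed. Sites over 1000 bp from a start of any gene had a median log2 fold change of 0.285 in bap and 0.44 in twi. In twi Alk.DN H held 1.533 CPM per site, where the median of all genes was 1.53 to 1.6.

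**Figure D4:**
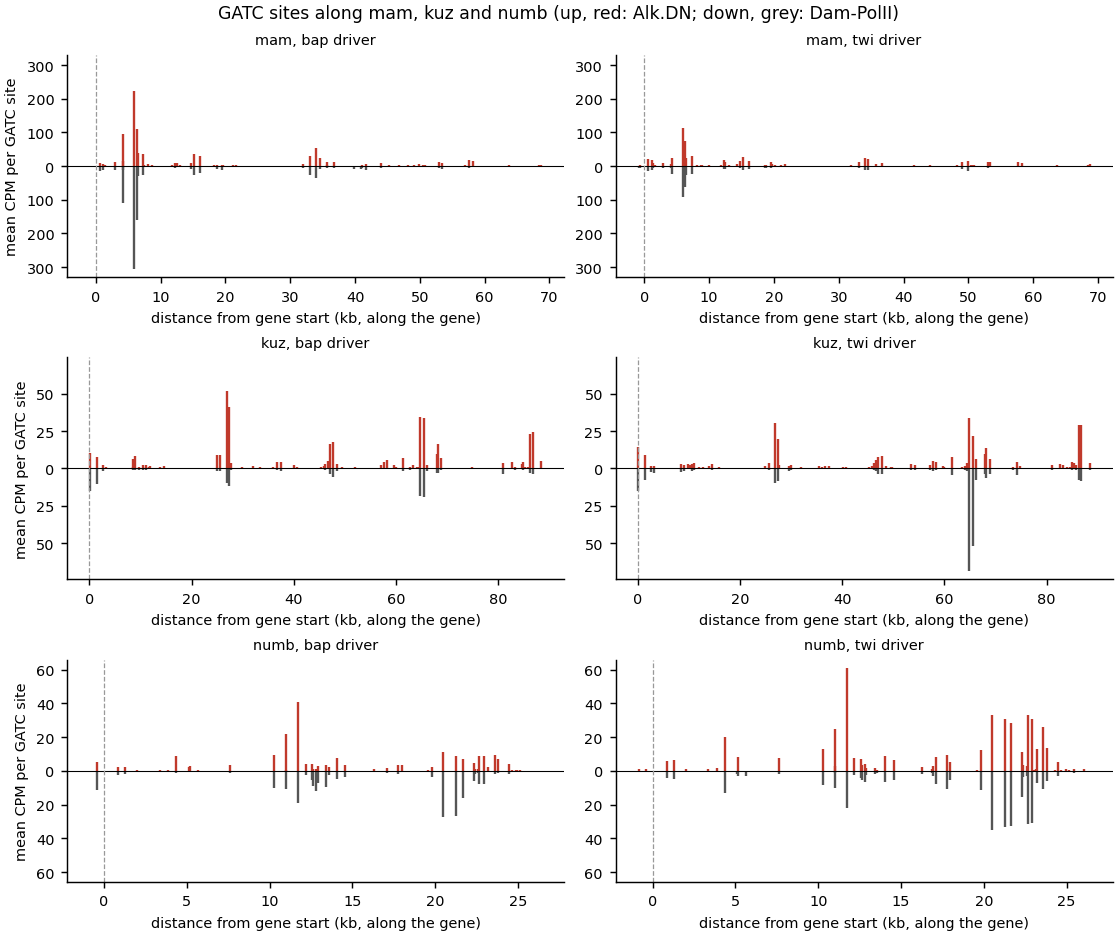
Mean CPM of each GATC site (vertical axis, 3 replicates) against distance from the gene start in kb for mam, kuz and numb, drawn as for N, with Alk.DN upwards in red and the Dam-PolII controls downwards in grey. The longest mam line is that of the labelled bap controls near 6 kb (305.1 CPM), and the kuz site near 65 kb reaches 68.7 CPM in the twi controls against 33.68 CPM in twi Alk.DN.

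At the level of single GATC sites, 49 of 231 tested sites of the 9 genes passed in bap (10 higher and 39 lower in Alk.DN), against 20.4% of all 71052 sites (8.16% higher and 12.3% lower). In twi 38 of 351 passed (5 higher and 33 lower), against 11.1% of all 116694 sites (2.67% higher and 8.43% lower). The gene neur alone gave 19 of the 39 lower sites in bap and 21 of the 33 in twi, so the pooled counts rest largely on neur. Of all sites within 1000 bp of a start of any gene, 24.5% passed in bap (5.95% higher and 18.5% lower) and 17.7% in twi (2.34% higher and 15.3% lower). Of the member sites within 1000 bp of a start of the member itself, 15 of 40 were lower and 0 higher in bap, and 13 of 44 were lower and 1 higher in twi. Of the lower ones, 7 in bap and 4 in twi were neur sites. These sets were placed by different starts, so their shares are not strictly comparable. With total counts the member calls became 28 higher and 19 lower in bap, and 25 higher and 22 lower in twi.

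The other pathway genes were taken from a list of 34, of which 32 were in the annotation. In bap Alk.DN 1 was higher, 15 were lower (21.6% of all genes were) and 16 did not pass, with a median log2 fold change of -0.71 against 0.10 for all genes. In twi 2 were higher, 21 lower (21.0% of all genes were) and 9 did not pass, with a median of -1.07 against 0.18. With total counts the medians were -0.12 and -0.48 against 0.69 and 0.77, with 5 higher and 10 lower in bap and 4 higher and 16 lower in twi. In the fit over all 18 libraries 9 were lower in bap and 12 in twi, and 0 were higher, while of all 16871 genes 749 were higher and 1280 lower in bap and 97 higher and 758 lower in twi.

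The list held the Enhancer of split genes, which encode basic helix-loop-helix repressors transcribed in response to Notch. Of 7 such genes 5 were lower in bap Alk.DN (21.6% of all genes were) and 7 in twi Alk.DN (21.0% of all genes were), and 0 were higher. With total counts 4 and 7 were lower, against 1603 of 14920 and 1798 of 16491 of all genes. Their median log2 fold change was -1.56 in bap and -3.17 in twi. The gene E(spl)m7-HLH held 299.9, 317.7 and 380.0 CPM in the labelled bap controls and 48.75, 47.48 and 61.38 CPM in bap Alk.DN (log2 fold change -3.18, edgeR adjusted p = 4.03e-10). In twi E(spl)m7-HLH held 770.8, 976.0 and 884.9 CPM in the controls and 61.85, 66.6 and 59.59 CPM in Alk.DN (log2 fold change -4.32, adjusted p = 1.89e-10). In the Jeb libraries it held 14.49, 224.7 and 352.1 CPM in bap and 19.5, 677.1 and 884.2 CPM in twi, so that only the labelled Jeb replicate 1 libraries were below Alk.DN. E(spl)mgamma-HLH fell by 3.01 in bap (adjusted p = 3.34e-08) and by 3.82 in twi (adjusted p = 2.21e-10), and E(spl)mbeta-HLH fell by 2.56 in bap (adjusted p = 4.24e-08).

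Genes of the Bearded family, which encode small inhibitors of Neuralized, had 3 lower of 4 in bap and 4 lower of 4 in twi, with median log2 fold changes of -1.88 and -3.40. Of all genes, 21.6% were lower in bap and 21.0% in twi. BobA held 228.9, 280.7 and 234.6 CPM in the twi controls and 35.19, 22.48 and 26.18 CPM in twi Alk.DN (log2 fold change -3.66, edgeR adjusted p = 1.18e-08). Among the genes listed under ligand ubiquitination and endocytosis (mib1, mib2 and lqf), 2 of 3 were lower under each driver, beside those same shares of all genes. These were mib1 and mib2, and the paper names mib2 among genes expressed in the visceral mesoderm. Whether the fall of mib2 bears on Notch ligands was not tested. Of the 8 genes for receptor glycosylation and cleavage, 1 was higher and 2 lower in bap and 2 were higher and 2 lower in twi, where nct, a subunit of the gamma-secretase complex, was higher in both (1.18 and 0.81). Of the 7 receptor trafficking genes 3 were lower in bap and 4 in twi. The calls for glycosylation and cleavage and for trafficking in bap, 3 of 8 and 3 of 7, lie near the 38.8% of all genes. In twi 33.6% of all genes passed (12.7% higher and 21.0% lower), and these small lists were not tested as sets. The drivers differed past the threshold for 5 of the 7 Enhancer of split genes and 4 of 4 Bearded genes, each with the lower fold change in twi, against 10.9% of all genes in either direction. In the fit over all 18 libraries 1 of the 7 and 0 of the 4 passed. Each gene that differed between the drivers held fewer CPM in the labelled bap controls than in the twi controls. For Brd the values were 10.35 to 16.47 and 183.4 to 221.5 CPM, and for E(spl)m3-HLH 1352 to 1510 and 2677 to 2968 CPM. The part of these control levels in the difference between drivers was not tested.

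The comparison of Jeb with Alk.DN was designed to set Alk activation against its inhibition, but both labelled Jeb replicate 1 libraries held few jeb exon counts, against their label. With all 3 replicates, 0 of the 9 genes passed under either driver, and 0% of the 14648 genes tested in bap and of the 16492 tested in twi passed (edgeR). At an unadjusted p under 0.05 there were 2 members among 4399 genes in bap and 4 members among 5677 genes in twi. Other tools made calls: limma-voom called 22 genes higher and 1 lower in bap and 252 higher and 26 lower in twi, and the DESeq2 Wald test called 1021 higher and 542 lower in bap and 1985 higher and 1185 lower in twi. The gene neur had a log2 fold change of 1.79 in bap (95% interval 0.86 to 2.73, edgeR adjusted p = 0.0404) and of 2.00 in twi (95% interval 1.19 to 2.82, adjusted p = 0.0197). The DESeq2 Wald test called neur under both drivers.

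The labelled Jeb replicate 1 libraries stood apart from the other Jeb libraries for most members, lower for some and higher for others. Su(H) held 6.41, 43.16 and 64.03 CPM in bap Jeb and 14.16, 64.57 and 109.3 CPM in twi Jeb, in replicate order. The first replicate was the lowest in both, and 87% and 92.8% of its Su(H) counts came from sites that adjoin no purine-ended fragment. For neur only 5.33% and 6.55% of the counts in the labelled Jeb replicate 1 libraries came from such sites, and for N 1.44% and 2.34%. The gene kuz held 92.80, 194.3 and 206.2 CPM in bap Jeb and 127.4, 344.4 and 419.2 CPM in twi Jeb, again lowest in replicate 1. Replicate 1 was likewise lowest for mam, at 407.6, 1155 and 828.6 CPM in bap Jeb and 350.8, 686.8 and 708.6 CPM in twi Jeb, and for numb, at 155.4, 340.4 and 302.3 CPM and 144.7, 301.0 and 406.3 CPM. For Ser, replicate 1 was lowest too (44.17, 115.7 and 118.2 CPM in bap, 35.40, 96.47 and 63.69 CPM in twi). For Dl it lay within the range of the others (158.0, 151.9 and 233.9 CPM in bap, 348.1, 268.9 and 353.9 CPM in twi). N was highest in replicate 1, at 494.8, 350.3 and 352.8 CPM in bap Jeb and 768.9, 675.2 and 584.2 CPM in twi Jeb. H was also highest there, at 21.88, 2.652 and 3.078 CPM in bap Jeb and 25.24, 3.559 and 10.30 CPM in twi Jeb.

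**Figure D5:**
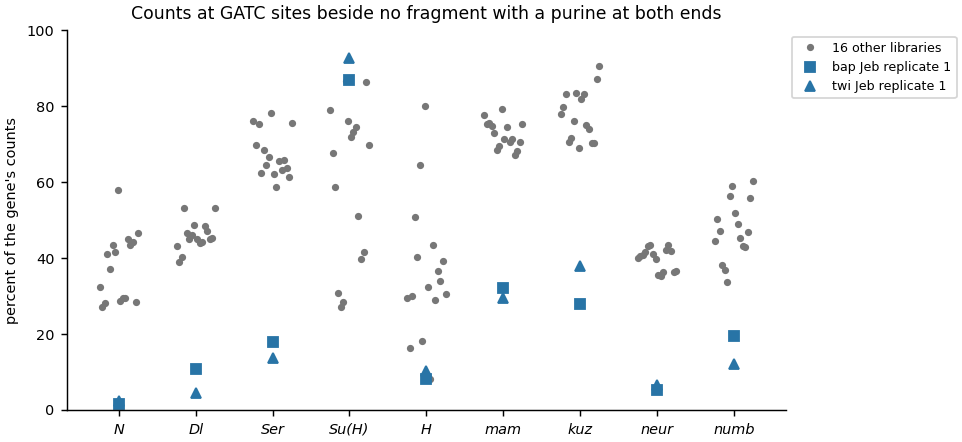
Percent of each member's counts at GATC sites beside no purine-ended fragment (vertical axis) in the 18 libraries (points), by gene, with the labelled Jeb replicate 1 libraries as coloured symbols. These lie below all 16 others for 7 of the 9 genes, such as N at 1.44% and 2.34%, among the others for H, and above them for Su(H) at 87% and 92.8%.

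Without the labelled Jeb replicate 1 library, which leaves 2 Jeb libraries, neur and numb were higher in bap Jeb than in bap Alk.DN, against 14.4% of all 15409 genes (10.3% higher and 4.11% lower). The log2 fold changes were 1.51 for neur (edgeR adjusted p = 5.63e-06) and 1.07 for numb (adjusted p = 0.00362). In twi 5 of the 9 genes were higher in Jeb and 0 lower, against 31.5% of all 16785 genes (19.4% higher and 12.1% lower). These were neur (1.83, adjusted p = 3.15e-05), Su(H) (2.14, adjusted p = 0.000184), N (0.92, adjusted p = 0.000813), mam (0.79, adjusted p = 0.000933) and kuz (0.77, adjusted p = 0.00195). With all replicates and total counts, mam and kuz had negative twi log2 fold changes (-0.31 and -0.43). On single sites, 17 of 236 member sites were higher and 1 lower in bap without replicate 1, against 4.32% of all sites (3.44% higher and 0.871% lower). In twi 62 of 373 were higher and 5 lower, against 11.9% (9.40% higher and 2.49% lower). Of the neur sites 12 of 36 in bap and 28 of 51 in twi were higher. The Enhancer of split genes were higher for 6 of 7 in bap and 7 of 7 in twi, and the Bearded genes for 4 of 4 in each. With all replicates 0 of these passed in the edgeR fit to the groups compared, and in the edgeR fit over all 18 libraries 1 Enhancer of split and 3 Bearded genes passed in bap and 5 and 4 in twi, all higher.

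Jeb was also compared with Dam-PolII. In neither driver did any of the 9 genes pass, and 0% of 13577 genes in bap and of 14747 in twi did (edgeR). At an unadjusted p under 0.05 there were 0 members among 1636 genes in bap and 0 among 1115 in twi, limma-voom called 0 genes, and the DESeq2 Wald test called 188 higher and 45 lower in bap and 13 and 14 in twi. The log2 fold change of neur was 0.54 in bap (95% interval -0.21 to 1.29, edgeR adjusted p = 0.503) and 0.63 in twi (95% interval -0.15 to 1.42, adjusted p = 0.645). Intervals of this width leave the direction undecided. Without the labelled Jeb replicate 1 libraries 1.43% of all genes passed in bap (0.812% higher and 0.621% lower) and 1.59% in twi (1.34% higher and 0.251% lower), and still 0 of the 9. In bap the labelled controls held more jeb exon counts (381.8, 366.7 and 469.8 CPM) than the Jeb libraries (5.574, 258 and 249.3 CPM). The jeb exon counts thus go against the labels of both groups in this comparison.

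The drivers were compared within Alk.DN, whose jeb exon counts were low under both drivers as its label gives. In that comparison 3 of the 9 genes passed, against 8.47% of all 16462 genes (2.34% higher and 6.12% lower). N was higher in twi Alk.DN, at 545.6 to 574.0 CPM against 362.1 to 371.1 CPM in bap Alk.DN (log2 fold change 0.47, SE 0.078, edgeR adjusted p = 0.00203). The call was lost without twi Alk.DN replicate 2 (adjusted p = 0.0177) or replicate 3 (adjusted p = 0.0197). The inhibitor numb was also higher in twi, at 437.9 to 512.5 CPM against 175.3 to 272.4 CPM (log2 fold change 0.97, SE 0.14, adjusted p = 0.000969). The coactivator mam was lower in twi, at 663.3 to 692.6 CPM against 906.2 to 954.1 CPM (log2 fold change -0.60, SE 0.068, adjusted p = 0.000155). These 3 ranges, in raw CPM, did not overlap between the drivers. The genes are those that passed the test, and the share of all genes without overlap was not counted. For neur the log2 fold change was -0.34 (adjusted p = 0.0197) and for kuz -0.37 (adjusted p = 0.0277).

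Between the drivers, the log2 fold change of neur in Alk.DN differed by an interaction of 0.088 (95% interval -0.15 to 0.33, edgeR adjusted p = 0.672). For N the interaction was -0.28 (adjusted p = 0.152) and for numb 0.60 (SE 0.18, 95% interval 0.23 to 0.96, adjusted p = 0.021). With the replicate number as a block numb passed (0.61, adjusted p = 0.00777). The bap arm of each interaction rests on the labelled bap controls, whose jeb exon counts go against their label. On sites beside a purine-ended fragment alone no member passed the interaction test, although the values stayed close (0.60 for mam and -0.88 for kuz).

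Genes with the most similar level pattern over the 6 groups were found by the mean absolute difference in log2(CPM + 1). The closest pairs were N with CG7168 (0.042), Ser with CG7564 (0.046) and mam with Ssl1 (0.048).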

How the data were processed

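Genomic DNA methylated by Dam-PolII was amplified and sequenced in 18 libraries. The authors aligned reads with Bowtie2 to the release 6 genome (CASAVA 1.4, Bowtie2 and limma are named in the processing notes) and deposited whole-number counts at each GATC site, which were used here without change. Tables of the authors' own comparisons (4 peak lists with fold changes and p-values) were not used. All 383688 sites on the reference chromosomes matched a GATC there. Counts were summed over each gene's span plus 1 kb upstream, in which 11.2% of counts fell in no gene. Counts were not split between overlapping genes, and the counting does not use strand. Sites were 197 bp apart at the median.

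Tests were edgeR 4.0.16 quasi-likelihood F-tests (R 4.3.3, two-sided, minimum count 10, TMM), fitted to the groups compared, with Benjamini-Hochberg adjustment over all genes or sites tested and a threshold of 0.01. Log2 values come from these fits, and CPM is counts in 1000000 of the library total. Alternatives used limma 3.58.1, DESeq2 1.42.0, other scalings, filters and windows, a replicate block, and leaving out each library. Only the fits of Alk.DN against Dam-PolII were run on simulated counts, with the same dispersion for all features. The simulation held none of the differences between libraries described above, so it does not show how the fits behave with them. All 9 members are named. Other pathway genes are named where they were called in both Alk.DN comparisons with the largest absolute fold change, at most 3 a comparison, and nct was added after its values were seen. The members and lists were chosen with earlier results of these data known. Sequences are from the RefSeq release 6 genome. Intervals and floors cover counting error and the spread between replicates only.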

Additional observations from a re-analysis of the deposited data

Results flagged for a closer look

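The difference between Alk.DN and Dam-PolII depended on the driver for 2 of the 9 genes by the test of the interaction itself. For mam the log2 fold change in twi was 0.73 above that in bap (edgeR adjusted p = 3.66e-05), and for kuz it was -0.91 (adjusted p = 0.000152). Every single alternative that left out 1 library kept both calls, as did the replicate block, and the fit over all 18 libraries and the one on sites beside a purine-ended fragment lost them. The libraries labelled bap Dam-PolII, which enter both values, hold jeb exon counts that their label does not give, and the part of this in the values was not tested.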

How the results depend on the processing

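In bap Alk.DN against the labelled controls the 5 calls became 3 with total counts, 3 with a count minimum of 50, 3 on sites beside a purine-ended fragment (an alternative chosen after seeing the data) and 1 in the fit over all 18 libraries. In twi the 4 calls became 7 with total counts and 1 with all 18 libraries. For Jeb against Alk.DN the 0 calls became 1 in bap and 3 in twi with the DESeq2 Wald test, 2 and 1 with all 18 libraries, and 1 in twi on purine-ended sites. For twi against bap in Alk.DN the 3 calls became 5 with the DESeq2 Wald test, 1 on purine-ended sites and 0 with all 18 libraries, and the 2 interaction calls became 0 on purine-ended sites and 0 with all 18 libraries. Why these fits differ was not tested. Leaving out 1 library gave 4 to 5 calls (bap Alk.DN), 3 to 4 (twi Alk.DN), 0 to 2 and 0 to 5 (Jeb against Alk.DN in bap and twi), 0 to 0 (Jeb against the controls), 2 to 4 (twi against bap) and 2 to 3 (interaction). Called member sites ranged from 30 to 39, 20 to 46, 0 to 18 and 0 to 67 in the same way, in the order bap and twi Alk.DN, then bap and twi Jeb against Alk.DN.

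Signs turned as follows. In bap Alk.DN, total counts gave N 0.12, Dl 0.49, Ser 0.39 and Su(H) 0.097, a count minimum of 50 gave Dl 0.087, and purine-ended sites gave Ser 0.35 and Su(H) 0.755. In twi Alk.DN, total counts gave Ser 0.36, mam 0.59 and numb 0.45. Other twi values lay near 0: Dl was -0.014 with DESeq2 size factors, -0.014 with the Wald test, -0.038 with all 18 libraries, -0.081 on the gene span alone, -0.080 without sites inside another gene, and -0.034 on purine-ended sites. In the same order kuz was -0.014, -0.014, -0.039, -0.054 and -0.088. The gene mam was 0.066 with a count minimum of 50, 0.0030 with limma-voom and 0.17 on purine-ended sites, and Su(H) was 0.038 on the latter. Leaving out 1 library gave -0.098 to 0.0975 for Dl, -0.066 to 0.038 for kuz and -0.035 to 0.0095 for mam. For twi Jeb against Alk.DN, total counts gave mam -0.31 and kuz -0.43, and purine-ended sites gave kuz -0.52. The neur interaction was -0.020 with size factors, -0.042 with total counts, -0.046 with a count minimum of 50, -0.020 with the Wald test, -0.010 on the gene span, -0.16 without sites inside another gene and -0.067 on purine-ended sites, and -0.071 to 0.16 on leaving out 1 library. Single-gene values kept direction and side of the threshold in 501 cases, lost the call in 34, gained it in 21 and turned sign in 46. Counts of members or sites stayed within 1.5 times in 157 cases and moved further in 25.

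Within the comparisons checked, replicate numbers did not pair the libraries, since deviations of same-numbered libraries correlated at -0.088 to 0.030. The check did not set the Jeb libraries of the drivers against each other, nor the controls of the drivers. Both labelled Jeb replicate 1 libraries shared low jeb exon counts and few counts at sites that adjoin no purine-ended fragment, as given above. With the replicate number as a block, 4 members passed in twi against bap, 3 in the interaction, and 1 site in bap Jeb against Alk.DN. H had too few counts for the count minimum of 50.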
